A study of Mus musculus with 12 samples.

Results

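The genes described here are 8 genes that mark the noradrenergic identity of neuroblastoma: Th, Dbh and Ddc of catecholamine synthesis, the transcription factors Phox2a, Hand2, Gata2 and Gata3, and the serotonin receptor gene Htr3a. They were taken by name, 8 of 52661 genes in the deposited expression table, and their splicing events by gene name, 116 of 401633 rows in the deposited splicing table. Their levels were read in Neuro-2a (N2A) cells, a mouse neuroblastoma line, after depletion and renewed supply of the splicing factor Puf60. All cells came from N2A Flp-In rtTA3 lines that carry an integrated, doxycycline-inducible and siRNA-resistant 3xFlag-Puf60 cDNA, so the controls carry it too. The cDNA holds exon 5 of Puf60 in the pEx5 line and lacks it in the mEx5 line. In each line, induction cells received 15 nM Puf60 siRNA and 2 µg/ml doxycycline for the last 24 h, knockdown cells received the Puf60 siRNA without doxycycline, and control cells received a non-targeting siRNA without doxycycline. Cells were harvested 48 h after transfection, and each of the 6 groups held 2 libraries of polyadenylated RNA, A and B. 1 label field of the libraries treated with doxycycline says that they were not induced; the treatment field names the drug and was followed, and Puf60 was highest in these libraries. The labels do not say whether a line is 1 clone or a pool, so the cDNA and any other difference between the stable lines cannot be told apart. The drug was never given together with the control siRNA, so effects of the drug and of the cDNA cannot be told apart either.

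Noradrenergic neuroblastoma cells resemble the sympathetic neuron lineage. In that lineage tyrosine hydroxylase (Th) makes DOPA from tyrosine, DOPA decarboxylase (Ddc) makes dopamine, and dopamine β-hydroxylase (Dbh) makes noradrenaline. The homeodomain factor Phox2a, the basic helix-loop-helix factor Hand2 and the zinc finger factors Gata2 and Gata3 act together in sympathetic neuron development, and HAND2 and GATA3 are known in human neuroblastoma as core regulators of the noradrenergic state. Htr3a encodes a subunit of the serotonin-gated cation channel 5-HT3.

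The libraries held 22908930 to 41494994 exon-exon junction reads. Levels in single libraries are given below as CPM, the counts-per-million scale of these junction reads, which is not per length. Puf60 itself had 246.09 RPKM after induction, 22.05 after knockdown and 107.44 in control of the pEx5 line, and 202.07, 25.16 and 103.47 RPKM in induction, knockdown and control of the mEx5 line. Of the markers that define noradrenergic cells, Hand2 and Phox2a were high, whereas the noradrenaline transporter Slc6a2 was at 0.01 to 0.02 RPKM in every group and Th was under 1 RPKM. Markers of other cells were uneven: Sox10 of Schwann cells, Slc6a3 of dopaminergic neurons, and Slc18a3 and Slc5a7 of cholinergic neurons were listed at 0 in all 6 groups. Among the serotonergic markers, Tph2, the neuronal tryptophan hydroxylase, stood at 8.4 to 11.85 RPKM, but 4 of the 6 listed genes stayed under 1 RPKM. Pmp22, a myelin protein gene on the Schwann cell list, stood at 60.25 to 98.61 RPKM, but 4 of the 8 listed genes stayed under 1 RPKM. The 25 listed genes of the mesenchymal neuroblastoma state summed to 859.0 to 1143 RPKM.

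4 sequences that the results below refer to are printed here. The first pair shows the end of exon 8 and the start of exon 9 of Htr3a, spliced to the downstream and to the upstream 3′ splice site, with the extra 18 nt in capitals. The third shows Ddc exon 9 in capitals between the last 30 bases of exon 8 and the first 30 of exon 10, where the reads along Ddc step up. The fourth is the stretch upstream of the annotated starts at the Th promoter (chr7:142900015-142900245, minus strand, 231 bases, RefSeq sequence on GRCm38.p6), with the homeodomain core ATTA on either strand and the cyclic AMP response element TGACGTCA in capitals. Exons are numbered on GENCODE vM21 transcripts on GRCm38, Htr3a-202 and Ddc-202, both on the minus strand, and the extra Htr3a bases lie at chr9:48899991-48900008.
Htr3a, downstream site: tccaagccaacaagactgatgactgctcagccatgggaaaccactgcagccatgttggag
Htr3a, upstream site: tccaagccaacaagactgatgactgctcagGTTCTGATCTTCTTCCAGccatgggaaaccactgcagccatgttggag
Ddc, exons 8 to 10: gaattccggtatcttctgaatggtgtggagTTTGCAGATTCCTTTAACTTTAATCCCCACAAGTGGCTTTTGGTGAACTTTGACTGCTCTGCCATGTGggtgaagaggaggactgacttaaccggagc
Th promoter: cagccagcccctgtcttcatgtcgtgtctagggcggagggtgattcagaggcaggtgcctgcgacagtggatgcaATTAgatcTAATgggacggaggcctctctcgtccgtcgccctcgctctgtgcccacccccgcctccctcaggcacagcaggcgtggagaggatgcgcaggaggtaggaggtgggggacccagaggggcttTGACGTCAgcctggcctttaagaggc

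The 8 genes covered a wide range of levels, and Hand2 and Phox2a led and Th came last in all 6 groups. Per length, Hand2 (chr8:57320983-57324633, plus strand) was the highest at 184.61 to 216.73 RPKM over the 6 groups, and Phox2a (chr7:101818313-101822726, plus strand) came next at 61.12 to 93.94 RPKM. Gata2 (chr6:88193891-88207032, plus strand) held 27.87 to 35.78 RPKM. Th (chr7:142892752-142931128, minus strand), the first enzyme of the pathway, was the lowest in all 6 groups, at 0.08 to 0.62 RPKM. The middle of the order changed with the line. Htr3a (chr9:48899213-48911099, minus strand) came after Phox2a, or after Phox2a and Gata2, in the pEx5 line, at 29.13 RPKM in induction, 30.55 in knockdown and 30.07 in control, and below Ddc as well in the mEx5 line, at 9.31, 13.02 and 8.56 RPKM in induction, knockdown and control. Ddc (chr11:11814101-11898144, minus strand) ranged from 7.07 to 17.06 RPKM, Dbh (chr2:27165233-27183200, plus strand) from 1.7 to 8.38 RPKM, and Gata3 (chr2:9857078-9890034, minus strand) from 3.22 to 6.89 RPKM. The coordinates are those of GENCODE vM21 on mm10. The deposited RPKM is 1 value per group with no library spread, so neighbours in the order, such as Dbh at 6.33 and Gata3 at 6.89 RPKM in pEx5 knockdown, cannot be tested from it.

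**Figure D1:**
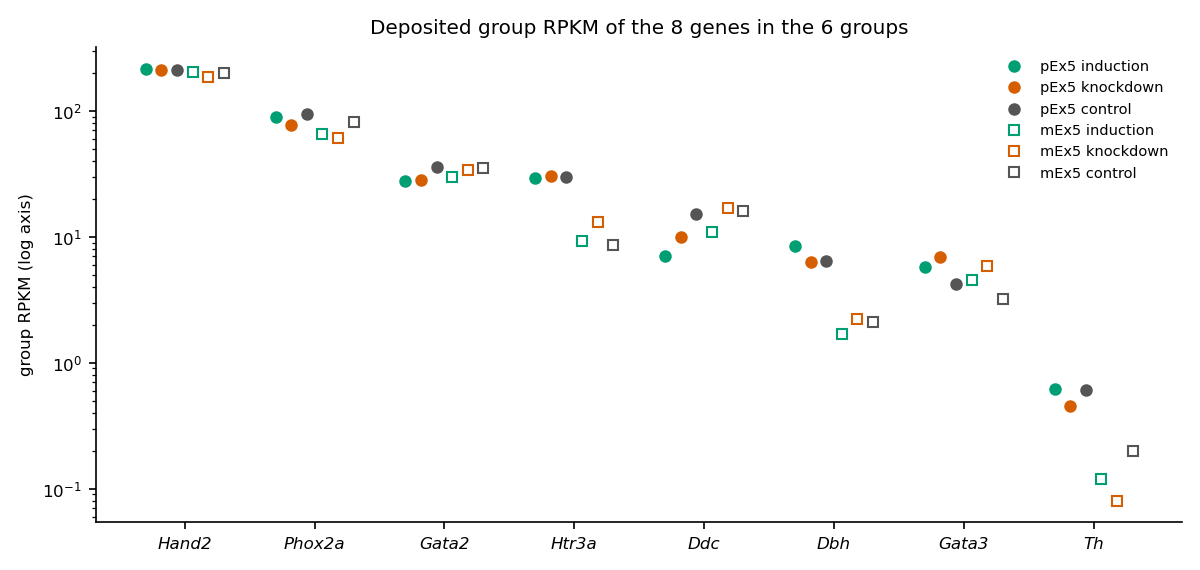
Deposited group RPKM (log axis) of the 8 genes in the 6 groups, 1 point per group, with filled circles for the pEx5 line and open squares for the mEx5 line. Hand2 lies between 184.61 and 216.73 RPKM and Th between 0.08 and 0.62 RPKM, and the lines separate at Htr3a, Dbh and Th.

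The clearest pattern was the difference between the lines. Th, Dbh and Htr3a were higher in every pEx5 library than in any mEx5 library, by 1.52 to 2.02 on the log2 scale over the 3 treatments. How many of all genes separate the lines in this way was not counted. Gata3 was modestly higher in the pEx5 line, Ddc was lower there over the 3 treatments, and Phox2a, Hand2 and Gata2 did not pass the test. In the control libraries alone, 4 of 8 genes passed (Th, Dbh, Gata3 and Htr3a, all higher in the pEx5 line), against 27.4% of the 10363 genes tested on junction reads (13.9% higher and 13.5% lower). Averaged over the 3 treatments, 5 of 8 passed, 4 higher and 1 lower, against 52.6% of all genes tested (28.0% higher and 24.6% lower). Taken in either direction, that count is near the share of all genes. The split of all called genes depended on scaling: 50.8% of those called between control lines were higher in the pEx5 line, and 35.0% when libraries were scaled by total junction reads. Over the 3 treatments that split was 53.2% and, by total reads, 41.8%. The count of called members was the same under both scalings, 4 and 5 of 8. The median difference between control lines was 0.24 on the log2 scale over the 8 genes and 0.014 over all genes tested.

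Htr3a gave 79.5 to 87.9 CPM in the 6 pEx5 libraries, with a median of 84.7, and 22.6 to 40.3 CPM in the 6 mEx5 libraries, with a median of 27.4. The ranges do not touch. Between control libraries the difference was 1.79 ± 0.07 on the log2 scale (SE, limma, adjusted p = 4.16e-13). Dbh gave 27.0 to 41.0 CPM in the pEx5 libraries, median 29.4, and 7.1 to 12.1 CPM in the mEx5 libraries, median 9.06. Here too every pEx5 library was above every mEx5 library, and the control lines differed by 1.74 ± 0.13 (log2 ± SE, limma, adjusted p = 8.33e-09). Th rested on few reads, 35 to 64 junction reads per library in the pEx5 line and 4 to 15 in the mEx5 line. That is 0.956 to 1.85 CPM, median 1.39, in the pEx5 libraries and 0.128 to 0.558 CPM, median 0.283, in the mEx5 libraries. These low counts still separated the lines, with a control difference of 1.92 ± 0.41 (log2 ± SE, limma, adjusted p = 0.00161).

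Gata3 gave 7.22 and 7.3 CPM in the pEx5 control libraries and 5.1 and 5.47 CPM in the mEx5 control libraries. Both pEx5 values were higher, by 0.45 ± 0.13 on the log2 scale (SE, limma, adjusted p = 0.0131). This call was lost without either pEx5 control library or without mEx5 control A, with an adjusted p of up to 0.0937 (limma). Ddc gave 12.2 and 13.4 CPM in pEx5 control and 13.3 and 14.9 CPM in mEx5 control, values that overlap. Its difference was -0.14 ± 0.11 in control (log2 ± SE, limma, adjusted p = 0.406) and -0.43 ± 0.065 over the 3 treatments (adjusted p = 1.43e-05), lower in the pEx5 line. Hand2, at 61.8 to 71.3 CPM in the pEx5 libraries and 61.6 to 72.7 CPM in the mEx5 libraries, differed between control lines by 0.01 with a 95% interval of -0.15 to 0.17 on the log2 scale. For Gata2 that interval ran from -0.16 to 0.21, and for Phox2a from -0.32 to 0.28. The authors' deposited table called the same 4 genes between control lines, where it calls 24.2% of 18600 genes (12.2% higher and 12% lower), and gave log2 fold changes of 1.88 for Th, 1.74 for Dbh, 0.39 for Gata3 and 1.79 for Htr3a. Between the lines under knockdown that table called 5 of 8 genes, where 25.9% of all genes are called (13.0% higher and 12.8% lower): Th, Dbh, Gata3 and Htr3a higher in the pEx5 line and Ddc lower. After induction it called 6 of 8, against 29.9% of all genes (15.4% higher and 14.5% lower), with Phox2a higher as well, at 0.38.

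**Figure D2:**
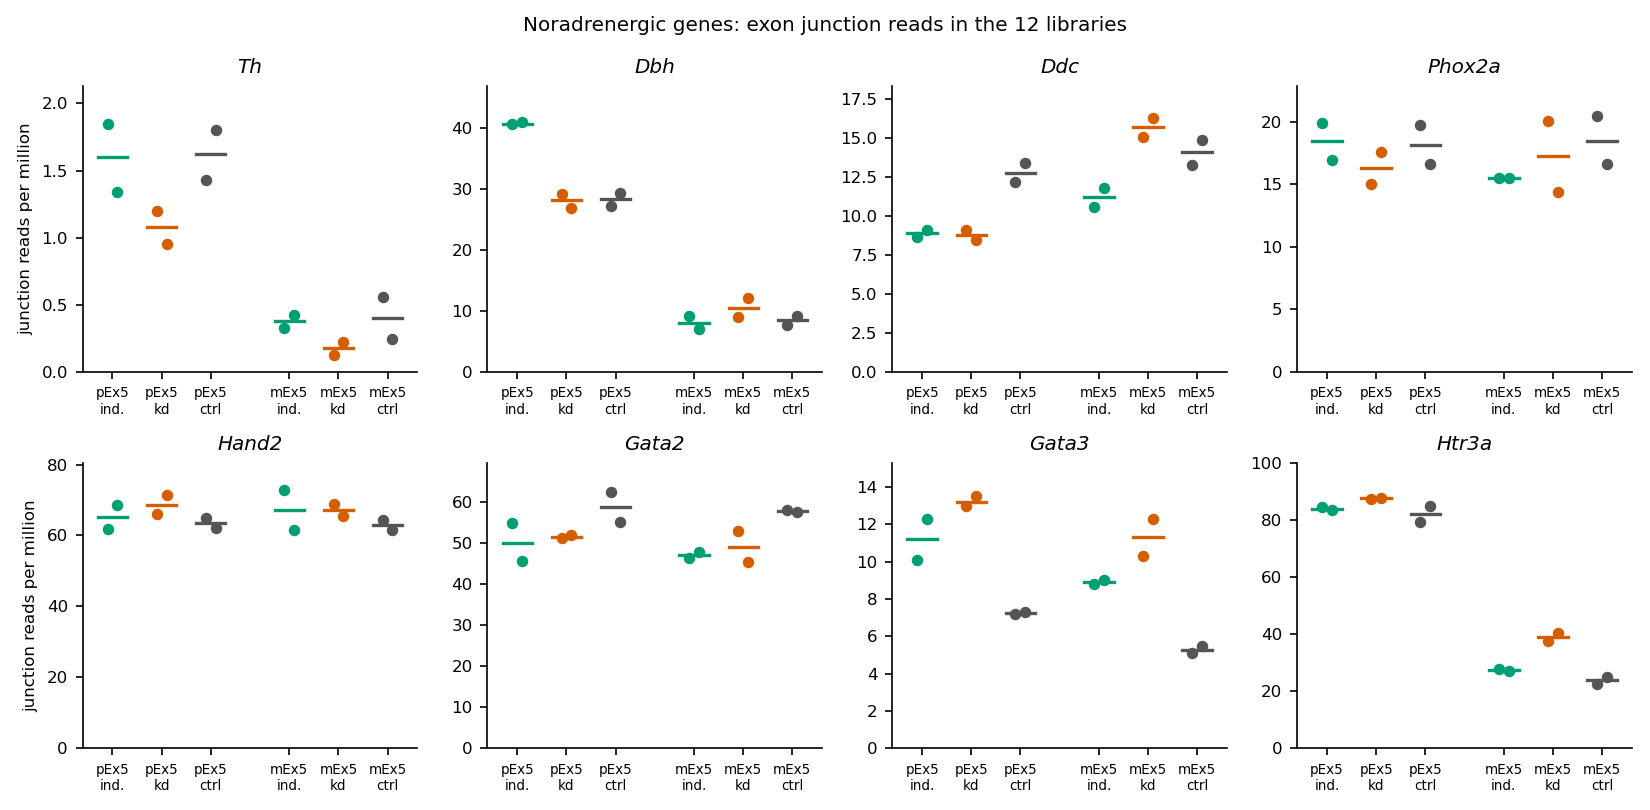
Exon junction CPM in each of the 12 libraries (points) and the mean of each group of 2 (line), 1 panel per gene, for induction (ind.), knockdown (kd) and control (ctrl) in the pEx5 line on the left and the mEx5 line on the right of each panel. Th, Dbh and Htr3a are separated by line, Gata3 is lowest in the control libraries, and Hand2 stays within 61.6 to 72.7 CPM.

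The line differences of Dbh and Htr3a ran along the whole of each gene. Each of the 11 introns of Dbh had a higher junction level in every pEx5 library than in any mEx5 library, with ratios of the mean levels from 2.85 to 4.54. Each of the 8 Htr3a introns in the table did so too, with ratios from 2.37 to 3.37. The gene levels are sums of these same reads, so the introns show where the difference lies and do not repeat it. The share of introns of all genes that separate the lines was not counted. Gata3 had ratios from 1.1 to 1.49 over its 5 introns, with overlapping libraries, Gata2 from 0.897 to 1.1 over 5, and Phox2a 0.973 and 1.07 over 2. The 12 introns of Th held 5 to 51 reads each over the 12 libraries, too few to be read singly. In the 300-base promoter windows of RefSeq, from 250 bases before to 50 after each start, ATTA on either strand occurred 5 times at Hand2, 3 times at Dbh, 3 and 2 times in the windows of Ddc and 2 times at Th, with no match at Phox2a, Gata2 or Gata3, so it was found both at genes that differed between the lines and at Hand2. 58.0% of the 32851 windows hold it. TGACGTCA occurred once at Th, as capitals show in the printed stretch, and 1.79% of all windows hold it, at no other of the 7 genes with a window.

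On Puf60 knockdown, Gata3 rose in both lines, Htr3a rose in the mEx5 line, Gata2 fell modestly, Ddc fell in the pEx5 line, and Th fell in the average of both lines on very few reads. For the average of both lines 4 of 8 genes were called, Gata3 and Htr3a higher and Th and Gata2 lower, against 51.8% of all genes tested (26.6% higher and 25.3% lower). For the pEx5 line 2 of 8 were called, against 39.1% of all genes (19.6% higher and 19.5% lower). For the mEx5 line it was 3 of 8, against 35.8% (17.6% higher and 18.2% lower). These shares are close to or below those of all genes. The median log2 change over the 8 genes was -0.02 in the average of both lines, and 0.012 over all genes.

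Gata3 had 13.0 and 13.5 CPM in pEx5 knockdown, against 7.22 and 7.3 CPM in pEx5 control, and 10.3 and 12.3 CPM in mEx5 knockdown, against 5.1 and 5.47 CPM in mEx5 control. The knockdown libraries were above the controls of their line at each of the 5 introns, whose reads are summed in that level. It rose by 0.86 ± 0.13 in the pEx5 line (log2 ± SE, limma, adjusted p = 2.62e-05) and by 1.08 ± 0.13 in the mEx5 line (adjusted p = 2.21e-06). Its relative Gata2 had 51.2 and 51.9 CPM in pEx5 knockdown, against 62.4 and 55.2 CPM in pEx5 control, and 52.9 and 45.3 CPM in mEx5 knockdown, against 57.9 and 57.6 CPM in mEx5 control. All 4 knockdown libraries were below all 4 control libraries, and Gata2 fell by 0.21 ± 0.062 in the average of both lines (log2 ± SE, limma, adjusted p = 0.00757). Without pEx5 control A its adjusted p was 0.0545 (limma). The mEx5 line taken alone gave -0.24 ± 0.088 (log2 ± SE, limma, adjusted p = 0.0416), a call lost without pEx5 knockdown B, mEx5 knockdown B or either mEx5 control library, with values down to -0.13. The authors' deposited table called Gata2 lower in both lines, at -0.24 in pEx5 and -0.27 in mEx5.

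Htr3a had 37.8 and 40.3 CPM in mEx5 knockdown, against 22.6 and 24.9 CPM in mEx5 control. The pEx5 libraries had 87.4 and 87.9 CPM in knockdown, against 79.5 and 84.9 CPM in control. It rose by 0.72 ± 0.07 in the mEx5 line (log2 ± SE, limma, adjusted p = 1.56e-07). In the pEx5 line the change was 0.09 with a 95% interval of -0.05 to 0.24, and the difference between the lines, -0.62 ± 0.098 (pEx5 minus mEx5), passed the limma test (adjusted p = 0.0216) as 1 of 3 genes of 10363 (0.0289%). That difference call was lost on leaving out any of 8 of the 12 libraries, with an adjusted p between 0.0201 and 0.313 (limma). It was lost without each of the 6 pEx5 libraries, without mEx5 control A and without mEx5 knockdown B. The mEx5 rise itself was called without each of the 12 libraries in turn.

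Among the enzymes, Ddc had 9.11 and 8.47 CPM in pEx5 knockdown, against 12.2 and 13.4 CPM in pEx5 control, and 15.1 and 16.3 CPM in mEx5 knockdown, against 13.3 and 14.9 CPM in mEx5 control. It was lower in both pEx5 knockdown libraries and higher in both mEx5 knockdown libraries than in the controls of the same line. It fell by 0.54 ± 0.11 in the pEx5 line (log2 ± SE, limma, adjusted p = 0.000778), whereas the mEx5 value of 0.16 ± 0.11 did not pass (adjusted p = 0.292) and the difference between lines, -0.70 ± 0.16, did not either (adjusted p = 0.208). Th had 1.2 and 0.956 CPM in pEx5 knockdown, against 1.43 and 1.8 CPM in pEx5 control, and 0.128 and 0.221 CPM in mEx5 knockdown, against 0.558 and 0.242 CPM in mEx5 control. Each knockdown value was below both controls of its line, the mEx5 ones on 4 and 6 reads. The average fall was 0.72 ± 0.29 (log2 ± SE, limma, adjusted p = 0.0459), and the call was lost without any of 8 of the 12 libraries: each pEx5 library, mEx5 control A or mEx5 knockdown A. Over the 12 omissions the value lay between -0.98 and -0.45. Dbh changed by 0.15 with a 95% interval of -0.05 to 0.34 in the average of both lines, Hand2 by 0.10 (-0.01 to 0.22) and Phox2a by -0.13 (-0.35 to 0.08), and none of the 3 passed the limma test. By the authors' deposited table, Gata3, Ddc, Phox2a and Gata2, or 4 of 8 genes, were called in the pEx5 line, where it calls 32.7% of all genes (15.2% higher and 17.5% lower): Gata3 higher at 0.75, and Ddc (-0.48), Phox2a (-0.22, FDR = 0.0495) and Gata2 lower. For the mEx5 line that table also called 4 of 8, against 30.7% of all genes (14.0% higher and 16.8% lower): Gata3 (0.86) and Htr3a (0.64) higher, and Th (-1.48, FDR = 0.0309) and Gata2 lower.

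**Figure D3:**
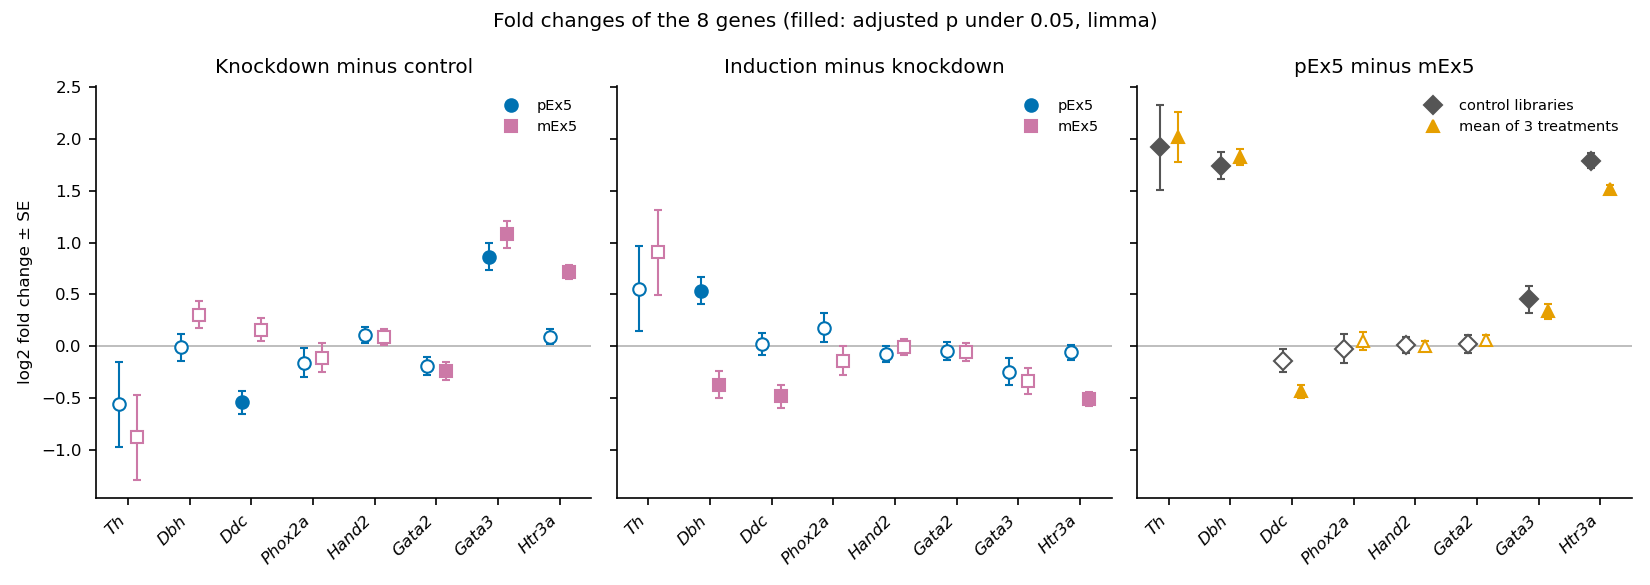
Log2 fold changes ± SE from limma on junction reads for the 8 genes: knockdown minus control and induction minus knockdown in each line (circles pEx5, squares mEx5), and pEx5 minus mEx5 in the control libraries (diamonds) and over the 3 treatments (triangles), with filled symbols at an adjusted p under 0.05. Gata3 stands at 0.86 and 1.08 on knockdown, Dbh at 0.54 and -0.37 on induction, and Th, Dbh and Htr3a between 1.52 and 2.02 between the lines.

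After induction, set against knockdown, Dbh was higher in the pEx5 line, and Dbh, Ddc and Htr3a were lower in the mEx5 line. Of the 8 genes 1 was called in the pEx5 line, against 22.0% of all genes tested (12.8% higher and 9.17% lower), and 3 in the mEx5 line, against 25.6% (13.3% higher and 12.4% lower). Dbh had 40.7 and 41.0 CPM in pEx5 induction, against 29.3 and 27.0 CPM in pEx5 knockdown, and 9.1 and 7.1 CPM in mEx5 induction, against 9.03 and 12.1 CPM in mEx5 knockdown. The pEx5 groups do not overlap, and the mEx5 groups do. Dbh rose by 0.54 ± 0.13 in the pEx5 line (log2 ± SE, limma, adjusted p = 0.00683; 0.0767 without pEx5 knockdown B) and fell by 0.37 ± 0.13 in the mEx5 line (adjusted p = 0.0461). The mEx5 call was lost without either of mEx5 knockdown B and mEx5 induction B, where the change was -0.16 and -0.20, and without each pEx5 library, with adjusted p-values up to 0.468 (limma). The difference between the lines was 0.91 ± 0.19 (log2 ± SE, limma, adjusted p = 0.0267), with 0.753% of all genes called in that comparison (0.473% higher and 0.28% lower). It was lost without any of 6 libraries, namely both pEx5 knockdown, both pEx5 induction, mEx5 knockdown B or mEx5 induction B, with an adjusted p of up to 0.138 (limma).

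Htr3a had 27.7 and 27.2 CPM in mEx5 induction, against 37.8 and 40.3 CPM in mEx5 knockdown, and it fell by 0.51 ± 0.07 (log2 ± SE, limma, adjusted p = 2.04e-05). The pEx5 libraries had 84.5 and 83.7 CPM in induction, against 87.4 and 87.9 CPM in knockdown, a change of -0.06 with a 95% interval of -0.20 to 0.09. The induction effect on Htr3a differed between the lines by 0.45 ± 0.098 (log2 ± SE, limma, adjusted p = 0.0365). That call was lost without any of 7 libraries, both induction and knockdown libraries of pEx5, both mEx5 induction libraries or mEx5 knockdown B, with an adjusted p of up to 0.198 (limma). Ddc had 10.6 and 11.8 CPM in mEx5 induction, against 15.1 and 16.3 CPM in mEx5 knockdown, and fell by 0.48 ± 0.11 (log2 ± SE, limma, adjusted p = 0.00348). For pEx5, Ddc had 8.66 and 9.14 CPM in induction, against 9.11 and 8.47 CPM in knockdown, overlapping values, and the difference between the lines, 0.51 ± 0.16, did not pass (log2 ± SE, limma, adjusted p = 0.151). Gata3 had 10.1 and 12.3 CPM in pEx5 induction and 8.78 and 9.01 CPM in mEx5 induction, below the knockdown libraries of each line, but its changes of -0.25 ± 0.13 and -0.34 ± 0.13 did not pass (log2 ± SE, limma, adjusted p = 0.188 and 0.0627). In the authors' deposited table induction called Dbh higher in the pEx5 line (0.52, 1 of 8 genes, against 19.3% of all genes, 10.7% higher and 8.64% lower), and Ddc (-0.40), Gata3 (-0.28) and Htr3a (-0.49) lower in the mEx5 line (3 of 8, against 19.9%, 10.7% higher and 9.26% lower).

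Set against the control libraries over both lines, induction left 3 of 8 genes called, against 38.2% of all genes tested (18.9% higher and 19.3% lower). With libraries scaled by total junction reads 5 of 8 were called, Dbh (0.26) and Htr3a (0.15) higher as well. Of all 10363 genes tested, 2284 were then called higher and 1581 lower. The share of higher genes among all calls was 59.1%, against 49.6%. Gata3 was still higher by 0.68 ± 0.091 (log2 ± SE, limma, adjusted p = 8.87e-06), and Gata2 and Ddc were lower by -0.26 ± 0.062 (adjusted p = 0.00257) and -0.42 ± 0.08 (adjusted p = 0.000358). In all 4 induction libraries Gata3 was above, and Gata2 and Ddc were below, the controls of the same line. Th was at 0.01 with a 95% interval of -0.60 to 0.62, which at these counts leaves a wide range.

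Along Ddc the junction reads were uneven. The 7 introns numbered 2 to 8 held 67 to 263 reads each over the 12 libraries, and the 6 introns numbered 9 to 14 held 265 to 1032 each. The step came at exon 9, the 68-nt exon printed above. In the induction groups the higher level did not hold at every later intron. Intron 3 had 0.996 CPM in pEx5 induction and 1.02 in mEx5 induction. Intron 10 had 0.605 and 0.641 CPM there, and intron 11 had 0.398 and 0.541 CPM. An annotated shorter GENCODE transcript, Ddc-205, has 6 exons and starts with a 355-nt exon between exons 8 and 9 of Ddc-202. The intron at the distal first exon, whose length matches none in Ddc-202, held 2 reads in all. This division of the gene was made after its values were seen and is given without a test. The downstream introns had 5.62 and 6.6 CPM in pEx5 induction, 7.3 and 6.61 CPM in pEx5 knockdown and 9.48 and 11.5 CPM in pEx5 control, and 7.54 and 7.9 CPM in mEx5 induction, 13.2 and 13.3 CPM in mEx5 knockdown and 10.6 and 12 CPM in mEx5 control. In the pEx5 line both treated groups were below control, and in the mEx5 line knockdown was the highest group and induction the lowest. The upstream introns had 3.03 and 2.53 CPM in pEx5 induction, 1.81 and 1.86 in pEx5 knockdown and 2.76 and 1.89 in pEx5 control, and 3.09 and 3.91 CPM in mEx5 induction, 1.93 and 3.02 in mEx5 knockdown and 2.72 and 2.81 in mEx5 control. Induction against knockdown gave ratios of the mean levels of 0.878 in pEx5 and 0.585 in mEx5 for the downstream introns, and of 1.52 and 1.42 for the upstream introns. The downstream share of Ddc junction reads was 65.0% and 72.3% in pEx5 induction, 80.1% and 78.1% in pEx5 knockdown and 77.5% and 85.9% in pEx5 control. In the mEx5 line it was 70.9% and 66.9% in induction, 87.3% and 81.4% in knockdown and 79.6% and 81.1% in control, so each induction library was below each knockdown and control library of both lines. The exact 95% binomial interval, for counting error only, was 66.1% to 77.9% for the highest of the 4 induction libraries and 73.0% to 82.5% for the pEx5 knockdown library at 78.1%. The group RPKM of Ddc, 7.07 in pEx5 induction and 9.92 in pEx5 knockdown, gives a log2 ratio of -0.49, while the log2 fold change in the authors' deposited table is -0.14.

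**Figure D4:**
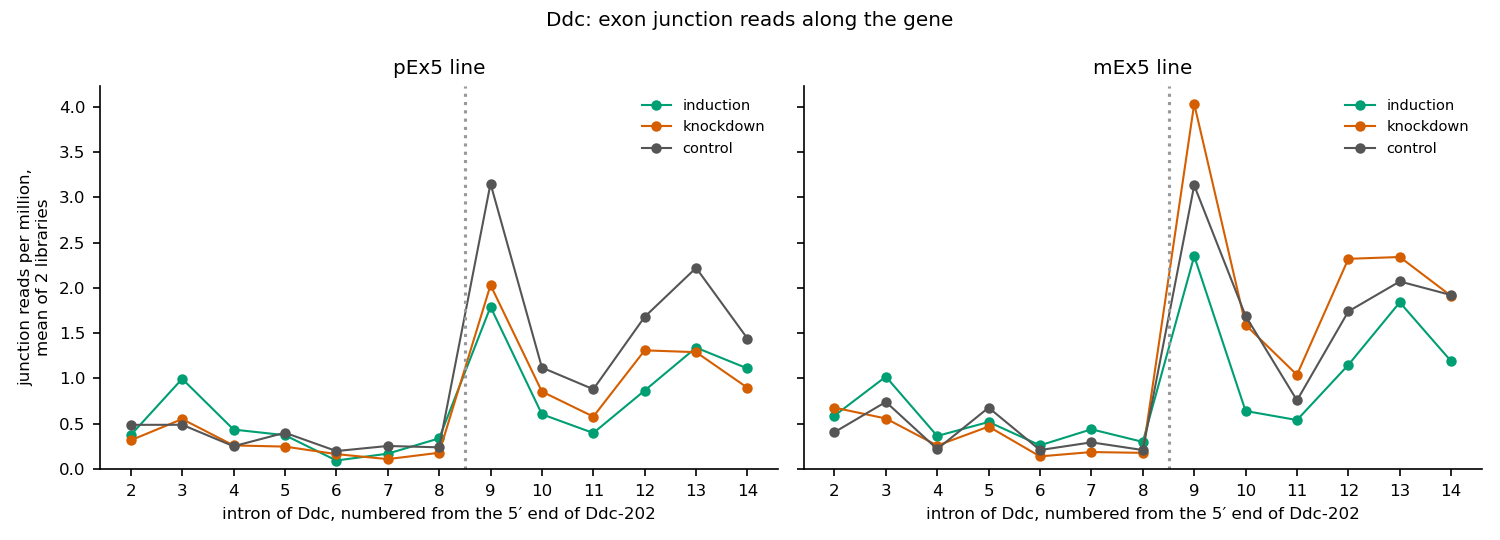
Exon junction CPM at each intron of Ddc (mean of 2 libraries), numbered from the 5′ end of transcript Ddc-202, for induction, knockdown and control in the pEx5 line (left) and the mEx5 line (right), with a dotted line between introns 8 and 9. The level rises from intron 8 to intron 9 in every group, and from intron 9 on the induction groups lie below their controls. In both induction groups introns 10 and 11 lie below intron 3.

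Splicing of the 8 genes was largely constitutive. Of 111 events, counted without 5 reference sites, 68 had at least 10 reads in every library. Of those 68, all 33 exons had a mean percent spliced in (PSI) above 95, and 29 of 32 introns had a mean retention under 5%. No event of Th, with 22 events, reached 10 reads in every library. 4 events had a mean PSI from 5 to 95 and were tested: the 18-nt 3′ splice site choice of Htr3a, a 435-nt intron of Dbh (intron 8), and the 2066-nt and 739-nt introns of Phox2a. A call needed an adjusted p under 0.05 and a difference of at least 10 points. By that rule 0 of 4 changed on knockdown over both lines, where 17.2% of 22766 events tested in the series changed, and 0 of 4 differed between control lines, where 0.0439% did. At an unadjusted p under 0.05, with limma, 1 of 4 changed on knockdown (Htr3a) and 0 of 4 differed between control lines. The share of all events at that threshold is not given here, so nothing is read from these counts.

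The Htr3a choice adds 18 nt, or 6 codons, at the start of exon 9, as in the upstream-site sequence printed above. Its use was 16.1% and 21.0% in pEx5 induction, 20.4% and 20.1% in pEx5 knockdown and 17.0% and 17.3% in pEx5 control. In the mEx5 line it was 17.2% and 11.4% in induction, 29.4% and 31.2% in knockdown and 21.8% and 20.8% in control, on 87 to 187 reads per library. Both mEx5 knockdown libraries were above all other libraries. Over both lines knockdown differed by 6.04 points (weighted limma, adjusted p = 0.0459), under the 10-point threshold, and in the mEx5 line by 8.95 points (adjusted p = 0.152). Induction against knockdown in the mEx5 line lowered the site by 16.0 points (weighted limma, adjusted p = 0.0172), where 10.2% of all events were called. That call was lost without mEx5 knockdown B, mEx5 induction A or mEx5 induction B, with adjusted p-values of up to 0.101 (weighted limma). The same comparison in the pEx5 line gave -1.72 points (weighted limma, adjusted p = 0.735), and the difference between the lines, 14.3 points, did not pass (adjusted p = 0.289). The level of Htr3a moved in the same mEx5 comparisons, higher on knockdown and lower on induction.

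Among introns with at least 10 reads in every library, Phox2a showed the highest retention. Its 739-nt intron was retained at 27.0% and 27.4% in pEx5 induction, 22.9% and 26.1% in pEx5 knockdown and 32.0% and 26.9% in pEx5 control. In the mEx5 line it was retained at 28.5% and 24.3% in induction, 15.5% and 28.3% in knockdown and 23.6% and 26.9% in control. Except for mEx5 knockdown A at 15.5%, the libraries lay between 22.9% and 32.0%, and the knockdown difference of -4.16 points did not pass (weighted limma, adjusted p = 0.205). The 2066-nt intron was retained at 8.03% to 12% in the 12 libraries. Among the other such introns, the highest mean retention was 8.16% at the 435-nt Dbh intron, 3.7% in Gata2, 1.92% in Ddc, 1.71% in Gata3, 1.23% in Htr3a and 1.21% at the only intron of Hand2.

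**Figure D5:**
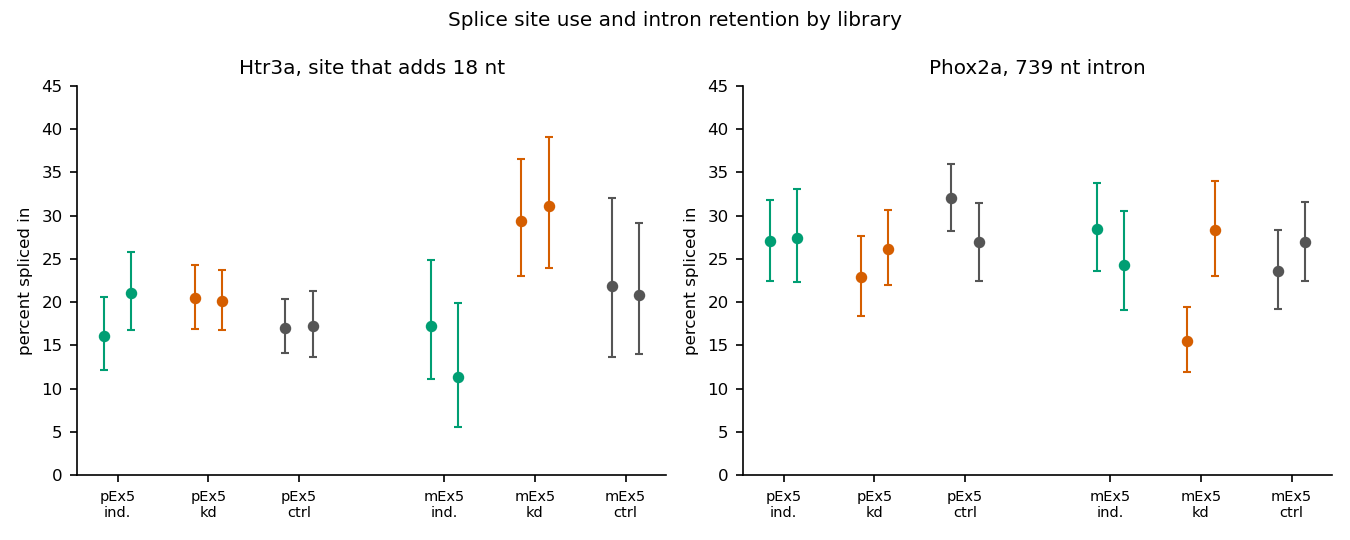
Percent spliced in of the Htr3a site that adds 18 nt (left) and retention of the 739-nt Phox2a intron (right) in each of the 12 libraries, with exact 95% binomial intervals that cover counting error only, for induction (ind.), knockdown (kd) and control (ctrl) of the pEx5 and then the mEx5 line. The mEx5 knockdown libraries have the highest Htr3a values, 29.4% and 31.2%, and for Phox2a 1 library, mEx5 knockdown A, stands low at 15.5%.

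The authors' deposited splicing table, which gives no criterion, called 4 other events of these genes. A 258-nt exon of Dbh was called on knockdown in the pEx5 line (1 of 81 events of the 8 genes, against 3.63% of all events) and between the lines under knockdown (1 of 75, against 0.721%). Its PSI was 100% in both pEx5 knockdown libraries, against 94.5% and 96.8% in pEx5 control. In the mEx5 line it went the other way, with 89.7% and 96.3% in knockdown, against 100% in both control libraries. A 45-nt exon of Htr3a was called on knockdown in the mEx5 line (1 of 76, against 3.03%), with 94.4% and 92.9% in knockdown, against 98.2% and 97.6% in control. A 167-nt exon of Htr3a was called between the lines after induction (1 of 77, against 1.38%), with 99.3% and 98.5% in pEx5 induction, against 96.0% and 92.8% in mEx5 induction. The 552-nt intron of Htr3a, the one that ends at the upstream site, was called on induction in both lines (1 of 79, against 2.21%, in pEx5 and 1 of 76, against 2.64%, in mEx5). Its retention was 9.63% and 8.5% in pEx5 induction, against 0% and 2.44% in pEx5 knockdown, and 15.4% and 12.2% in mEx5 induction, against 0% and 0% in mEx5 knockdown, on 9 to 84 reads per library. The control libraries had 6.74% and 7.87% in pEx5 and 0% and 13.6% in mEx5, so this intron, with under 10 reads in 1 library, was outside the retention values above. Its junction to the upstream site held 495 reads over the 12 libraries, against 2239 to 3565 at the other Htr3a introns. Reads spliced to the downstream site form another junction. These percentages therefore depend on use of the upstream site and are not the retention among all Htr3a transcripts. Between control lines the authors called 0 of 78 events, against 0.519% of all events. All 3 exons stayed above 89% in every library.

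Around the 8 genes, several genes of the catecholamine pathway fell on knockdown in both lines. Of 15 tested genes of catecholamine synthesis, storage, uptake and breakdown, 5 were called lower and 0 higher in both lines in the authors' deposited table, where 13.7% of all genes are lower and 10.1% higher in both. The median log2 change of the 15 was -0.11 in pEx5 and -0.19 in mEx5, and 0.018 over all genes in either line. Pts, which makes a precursor of the tyrosine hydroxylase cofactor tetrahydrobiopterin, fell by 1.38 in pEx5 and 1.35 in mEx5 and rose on induction by 0.77 and 1.01. Slc18a2, the vesicular monoamine transporter, had 39.54 RPKM in pEx5 knockdown, against 65.71 in pEx5 control, and 34.91 RPKM in mEx5 knockdown, against 55.53 in mEx5 control. Chga, a chromaffin granule protein, fell by 0.77 and 0.76. 8 of the 21 listed genes stayed under 1 RPKM in every group.

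Among 29 tested sympathoadrenal regulators, 11 were lower and 1 higher on knockdown in both lines, against 13.7% lower and 10.1% higher over all genes, with medians of -0.20 in pEx5 and -0.22 in mEx5. Lmo3, a LIM-domain cofactor, fell by 0.88 and 1.11, and Sox11 by 0.52 and 0.60. Tal2 rose by 1.85 and 1.41 at a level of at most 0.33 RPKM. Of 17 tested receptors, with medians of 0.02 in pEx5 and -0.11 in mEx5, 3 were higher and 0 lower, against the same 10.1% and 13.7% of all genes: Gfra1, a GDNF co-receptor, rose by 0.70 and 0.29, Erbb3 by 0.84 and 0.66, and Adra2b by 0.82 and 0.77. Of 12 tested neuron markers, with medians of -0.06 and -0.14 and against 13.7% lower and 10.1% higher over all genes, 3 were lower (Snap25 by 1.11 and 0.84, Elavl4 by 0.59 and 0.71, Ncam1 by 0.20 and 0.18) and 1 higher (Syn1).

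Markers of other states and cell types were counted the same way in the authors' deposited table. Of 17 tested genes of the mesenchymal neuroblastoma state, 2 were higher on knockdown in both lines (Wwtr1 by 1.19 and 0.86, Sox9 by 0.20 and 0.22) and 0 lower. The shares over all genes were 10.1% (higher) and 13.7% (lower). Within the pEx5 line 7 of the 17 were higher and 0 lower, against 15.2% and 17.5% of all genes. Within the mEx5 line 2 were higher and 1 lower, against 14.0% and 16.8%, a share near or below that of all genes. The medians were 0.3 in pEx5 and 0.12 in mEx5. Between control lines 8 of the 17 were lower in the pEx5 line and 0 higher, against 12% and 12.2% of all genes, with a median of -0.48, where Th, Dbh and Htr3a were higher. The summed level of the 25 listed mesenchymal genes was 1092 RPKM in pEx5 induction, 1143 in pEx5 knockdown and 962.5 in pEx5 control, and 859.0, 1059 and 1005 RPKM in induction, knockdown and control of the mEx5 line. 15 of the 25 stayed under 1 RPKM in every group, among them Prrx1 at 0 to 0.02 RPKM. Their part in the line difference was not tested. Summed levels of the other lists ranged from 65.15 to 105.3 RPKM for 8 Schwann cell genes, from 6.54 to 8.83 for 10 cholinergic, from 12.34 to 15.28 for 6 serotonergic, from 4.46 to 6.79 for 9 midbrain dopaminergic, and from 1.17 to 1.87 RPKM for 6 adrenal cortex genes. In both lines knockdown changed 1 of 4 tested Schwann cell genes (Pmp22, higher), 1 of 5 cholinergic (Ache, lower by 0.84 and 0.82), 1 of 3 serotonergic (Tph2, higher), 0 of 2 dopaminergic and 1 of 1 adrenal cortex genes (Star, higher). The shares over all genes were 10.1% higher and 13.7% lower. With so few tested genes the counts cannot be set against these shares, and nothing is read from the counts.

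The genes whose junction levels ran most like each member over the 12 libraries were found among 10362 other genes by Pearson correlation of log2 CPM. The libraries share their lines and treatments, so these values describe the pattern only. Dbh was most like Ret (r = 0.99), the GDNF receptor, which had 93.97 RPKM in pEx5 control and 42.19 in mEx5 control. Ppargc1b (0.982) and Limk1 (0.98) came next. Htr3a was most like Elovl7 (0.984), Cyth3 (0.976) and Pam (0.974), and Th like Satb1 (0.972), Panx1 (0.958) and Plxnd1 (0.954). Gata3 was most like Ctr9 (0.981), Cyb5 (0.973) and Igbp1 (0.972). The likeness was lower for Ddc, to Kbtbd4 (0.869), Fnbp1l (0.855) and Fmr1 (0.852), and for Hand2, to Eif3f (0.871), Gnb5 (0.853) and Ttc15 (0.821). Gata2 was most like Fermt3 (0.918), Bag4 (0.884) and Wdr46 (0.873), and Phox2a like Fam125a (0.94), Lcor (0.935) and 2310044H10Rik (0.853).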

How the data were processed

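Polyadenylated RNA of 12 N2A libraries was measured. The authors' deposited expression table gives 1 RPKM value per gene and group, and the authors' log2 fold changes, p-values and FDR for 18600 genes in 7 comparisons, made with Salmon 0.14.1 and edgeR on mm10 per the submitters' processing notes. The authors' deposited splicing tables give PSI in percent for each library with quality text that holds reads, and a group PSI score with True or False calls. Their coordinates run past the last annotated base of mm10 chromosome 7 and their assembly is not stated, so events are named by length. 98.89% of PSI values lay within 0.02 points of the value their reads give.

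Junction reads were summed per gene over its introns and tested with limma 3.58.1 in R 4.3.3 (log2 CPM, median-of-ratios scaling, prior count 2, mean of at least 20 reads, 10363 genes, Benjamini-Hochberg adjustment). All 8 genes passed that filter. Events with at least 10 reads in every library and a mean PSI of 5 to 95 were tested with limma on logits (pseudocount 0.5), weighted by reads with a variance floor of 0.01. Both fits were run on simulated data with the same spread for every gene and for every event, and the outcome is not reported here. The expression table holds no counts per library, so no count model was run. Junction totals can move when splicing changes. Nothing says that the libraries A and B came from separate cultures, so p-values measure the spread between these samples only. The 8 genes and the lists were chosen with earlier results of these data known. From each list at most 4 genes are named, those with the largest mean knockdown change among genes called in both lines by the authors, and for each of the 8 genes the 3 most alike. Marker genes given for their level alone were named for their role. The line levels of Ret were chosen after their values were seen. Some genes that these rules name are not reported here.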

Additional observations from a re-analysis of the deposited data

Results flagged for a closer look

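3 effects of the treatments on these genes differed between the lines by a limma interaction test. That test called 0.0289% of all genes tested for the knockdown effect and 0.753% for the induction effect. Each of the 3 calls was lost on leaving out some single libraries, as given above. The knockdown effect on Htr3a differed by -0.62 on the log2 scale (pEx5 minus mEx5, adjusted p = 0.0216), with 0.09 in pEx5 and 0.72 in mEx5. The induction effect on Dbh differed by 0.91 (limma, adjusted p = 0.0267), with 0.54 in pEx5 and -0.37 in mEx5. The induction effect on Htr3a differed by 0.45 (limma, adjusted p = 0.0365), with -0.06 in pEx5 and -0.51 in mEx5. The knockdown and induction effects on Htr3a use the same knockdown libraries, with opposite sign, so they are not independent. With 2 libraries per group, no test for single outlying libraries was made.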

How the results depend on the processing

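Of 80 pairs of a gene and a comparison, 28 were called, and 19 of the 28 were called without each library in turn. Another 8 pairs were called under an alternative only, and 20 of the 44 pairs never called changed sign, all at most 0.32 in size on the log2 scale. Induction against control over both lines gave 5 called genes, against 3, when libraries were scaled by total junction reads, since Dbh (0.26) and Htr3a (0.15) then passed. Under that scaling 2284 of all 10363 genes tested were called higher and 1581 lower. That scaling ended the calls of Th on knockdown in both lines (limma, adjusted p = 0.0544) and of Gata2 in the mEx5 line (0.0745), and a mean of at least 1 junction read that of Dbh on mEx5 induction (0.0552). The other alternatives (a prior count of 0.5, a mean of at least 1 junction read) changed counts by at most 1.5 times. With a replicate block on the letters A and B the counts of called genes were as without it: 4 on knockdown in both lines, 2 in pEx5, 3 in mEx5 and 1 differing between lines, 1 and 3 on induction in pEx5 and mEx5 and 2 differing, 3 against control, 4 between control lines and 5 over the treatments, with 0 splicing events on knockdown over both lines or between control lines. Over 15 pairs of groups the deviations of libraries with the same letter correlated with r from -0.127 to 0.163, over 0.1 in 2 pairs. That shows little shared deviation by letter. Whether libraries with the same letter were handled together cannot be told from it. Leaving out each library gave 0 to 1 genes that differed in the knockdown effect, 0 to 1 on induction in pEx5, 0 to 2 that differed in the induction effect, 3 to 5 for induction against control, 3 to 5 on knockdown in both lines, 2 to 4 in the mEx5 line and 2 to 4 on mEx5 induction. Where an omission left 1 library in a group, its spread was taken from the other groups. Counts of splicing events were 0 for knockdown over both lines and between control lines under every alternative run. The Htr3a 18-nt site on mEx5 induction (-16.0 points), an event added after its values were seen, was called under the 15-point threshold, without weights, with at least 20 reads and with the block. At an FDR under 0.01 the authors' calls of the 8 genes were 3 in place of 4 in each knockdown comparison, 2 in place of 3 on mEx5 induction, and 4 in place of 5 and 5 in place of 6 between the lines under knockdown and induction. By junction CPM, which is not per length, 3 of 8 genes in pEx5 control and 2 of 8 in mEx5 control kept their place in the order. Depth limits Th, whose mEx5 libraries held 4 to 15 reads.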
